A study of Mus musculus with 24 samples.

Results

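Respiratory complex II, respiratory complex III and ATP synthase are described here by the 31 rows of the count table, of 55401 in all, whose gene symbol is Sdha, Sdhb, Sdhc, Sdhd or Cyc1, or begins with Uqcr or Atp5. The members were chosen by symbol, and 8 names that end in a pseudogene suffix were left out. Of the 31 rows, 4 belong to complex II, 9 to complex III and 18 to ATP synthase. The row ENSMUSG00000116933.1, which carries the symbol Atp5o a second time, had 0 counts in every library. The other 30 members passed the filter on low counts in each test, and the lowest count among them in any library was 809.

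Ribosome-depleted total RNA was sequenced from the heart's left ventricle, from skeletal muscle and from kidney, using C57BL6/J mice aged 86 weeks or 16.5 weeks, and 24 libraries were made. Each age had 4 mice, 2 female and 2 male, and each mouse gave a library of every tissue. No genetic change or treatment is named for any group, and the ages come from different mice. Neither the muscle nor the kidney region that was sampled is named. Total counts lay between 52602585 and 103797551 per library.

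Complex II oxidises succinate to fumarate within the citric acid cycle and passes the electrons to ubiquinone. Complex III carries electrons from ubiquinol to cytochrome c and moves protons out of the mitochondrial matrix, and ATP synthase lets protons flow back through a rotating ring to make ATP. All subunits of complex II are nuclear genes, whereas complex III and ATP synthase also hold subunits encoded in mitochondrial DNA. Heart and the proximal tubule of the kidney depend on oxidative ATP synthesis, and the demand of a skeletal muscle varies with its fibre type.

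Each tissue carried the markers of its label. The sum of 5 cardiomyocyte markers was 42692 to 61244 CPM (a gene's counts as a share of the library total, scaled by TMM over all 24 libraries) in left ventricle and at most 674 CPM elsewhere. The sum of 7 skeletal muscle fibre markers was 118050 to 182720 CPM in skeletal muscle, and that of 6 proximal tubule markers was 8696 to 12984 CPM in kidney. The sum of 4 slow fibre markers was 9.07 to 40.6 CPM in skeletal muscle, against 6.12 to 10.3 CPM in kidney, so the muscle sampled carried few slow fibre transcripts. Atrial markers summed to 15.5 to 182 CPM in left ventricles at 86 weeks and to 19.96 to 135 CPM at 16.5 weeks. In whole tissue, fewer cells of a type and less RNA per cell cannot be told apart.

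The promoters of 23 of the 30 detected members were found in the RefSeq table for GRCm38.p6, as 250 bases before and 50 bases after the annotated start. Sequences are shown for 4 genes whose tissue differences are described below, with matches to the searched motifs in capitals and everything else in lower case. Sdha and Uqcrc1 each hold 3 matches to the NRF1 motif, and in Uqcrc1 a pair of them overlap on opposite strands. Atp5g3 holds an NRF1 match and an ERR match, while Atp5g1, a gene for the same protein subunit, holds no match to any of the 4 motifs.
Sdha (chr13:74350191-74350490, minus strand): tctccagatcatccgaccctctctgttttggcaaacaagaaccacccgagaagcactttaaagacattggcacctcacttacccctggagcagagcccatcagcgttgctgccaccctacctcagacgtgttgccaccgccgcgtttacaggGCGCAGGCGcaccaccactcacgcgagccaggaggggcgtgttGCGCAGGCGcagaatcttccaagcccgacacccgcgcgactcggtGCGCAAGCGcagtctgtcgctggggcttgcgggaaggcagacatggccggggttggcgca
Uqcrc1 (chr9:108936398-108936697, plus strand): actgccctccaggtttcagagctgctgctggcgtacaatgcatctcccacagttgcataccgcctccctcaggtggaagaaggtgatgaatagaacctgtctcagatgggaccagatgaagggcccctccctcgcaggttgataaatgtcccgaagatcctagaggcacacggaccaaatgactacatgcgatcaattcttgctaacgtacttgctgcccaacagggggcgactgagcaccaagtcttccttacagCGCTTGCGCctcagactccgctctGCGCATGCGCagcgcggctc
Atp5g3 (chr2:73911277-73911576, minus strand): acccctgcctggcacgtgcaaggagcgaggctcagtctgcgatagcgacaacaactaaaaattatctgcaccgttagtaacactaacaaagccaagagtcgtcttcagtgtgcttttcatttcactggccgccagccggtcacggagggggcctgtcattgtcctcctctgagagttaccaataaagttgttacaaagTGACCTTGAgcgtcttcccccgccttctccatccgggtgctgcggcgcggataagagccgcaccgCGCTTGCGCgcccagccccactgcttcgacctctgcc
Atp5g1 (chr11:96075582-96075881, minus strand): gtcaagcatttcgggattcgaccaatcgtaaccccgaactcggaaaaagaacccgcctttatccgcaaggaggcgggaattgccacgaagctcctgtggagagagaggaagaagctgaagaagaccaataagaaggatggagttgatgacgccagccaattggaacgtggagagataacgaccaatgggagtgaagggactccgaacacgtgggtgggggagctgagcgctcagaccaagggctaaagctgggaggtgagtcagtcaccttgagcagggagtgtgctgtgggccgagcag

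Each motif was searched on both strands in the letters given here, and no pair of motifs was merged. The NRF1 motif GCGCANGCG was present in at least 1 promoter of 11 of the 23 member genes (47.8%), against 7.03% of all 27025 genes in the table. The ETS motif CCGGAAG, the core bound by GABPA and related factors, was present in 10 of the 23 (43.5%), against 9.93% of all genes. The YY1 motif GCCATNTT was present in 4 (17.4%), against 6.96%. The ERR motif TNAAGGTCA, bound by oestrogen-related receptors, was present in Atp5g3 and Sdhd only among the 23 (8.70%), against 1.43% of all genes. At least 1 of the 4 motifs was present for 19 member genes (82.6%), against 21.96% of all genes. A match is a string of letters and does not show that a factor binds there. No background matched for expression or base content was used, so the shares do not show motifs particular to these genes.

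Subunit c, which forms the proton-carrying ring of ATP synthase, is encoded by 3 genes, Atp5g1, Atp5g2 and Atp5g3. Their precursors differ in the import sequence and give the same mature protein. The last 90 coding bases before the stop codon are shown from GENCODE M21 transcripts because they show how far reads can be assigned among the 3 genes, with positions that differ between any of them in capitals. Atp5g1 lies on chromosome 11, Atp5g2 on chromosome 15 and Atp5g3 on chromosome 2, each on the minus strand.
Atp5g1: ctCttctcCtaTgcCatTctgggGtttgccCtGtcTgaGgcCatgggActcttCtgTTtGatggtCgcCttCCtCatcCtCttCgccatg
Atp5g2: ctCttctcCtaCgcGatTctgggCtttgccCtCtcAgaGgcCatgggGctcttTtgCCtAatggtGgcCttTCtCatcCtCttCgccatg
Atp5g3: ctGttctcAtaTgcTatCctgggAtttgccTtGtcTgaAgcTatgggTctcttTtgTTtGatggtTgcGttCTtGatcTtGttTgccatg

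Of these 90 positions, Atp5g1 and Atp5g2 share 78, Atp5g1 and Atp5g3 share 73, and Atp5g2 and Atp5g3 share 67. The longest stretch identical across the whole coding sequence was 20 bases between Atp5g1 and Atp5g2, 11 bases between Atp5g1 and Atp5g3 and 8 bases between Atp5g2 and Atp5g3. Any stretch of more than 20 coding bases thus differs between each pair of these genes. Other annotated genes held closer matches. For 14 members another gene had a transcript stretch of 95% identity or more, mostly a processed pseudogene, but for some an overlapping neighbour at the same locus, such as Haus1 for Atp5a1, Pdzd9 for Uqcrc2 and Wdr77 for Atp5pb. The counts assigned to these other genes came to 33.4% of the member's own counts for Atp5g2 (2 genes), 25.2% for Atp5l (11 genes), 9.99% for Uqcr10, 8.88% for Atp5pb and 5.34% for Atp5g1. These shares do not bound the reads misassigned to or from these 5 genes, which were not measured. For Atp5pb, 4.80% were counts of Wdr77, which matched it over 192 bases. Atp5j and Gabpa overlap on opposite strands, as do Atp5pb and Wdr77, and the strand setting of the counting is not given in the sources used here.

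Left ventricle held the highest level of all 30 detected members. The 30 genes summed to 5595 ± 737 CPM per exon kilobase in left ventricle, against 2464 ± 324 in skeletal muscle and 2454 ± 288 in kidney (SD, n = 8 libraries each). The summed level in left ventricle was thus 2.27 times that in skeletal muscle and 2.28 times that in kidney, and the ratio of skeletal muscle to kidney was 1.004. By complex, the ratio of left ventricle to kidney was 1.92 for complex II, 2.34 for complex III and 2.34 for ATP synthase. The ratio of left ventricle to skeletal muscle was 2.21, 2.13 and 2.35 for the same 3 complexes, and that of skeletal muscle to kidney was 0.868, 1.10 and 0.995. Without any scaling between libraries, the members took 1.27 to 1.504% of all counts in left ventricle, 0.453 to 0.526% in skeletal muscle and 0.704 to 0.810% in kidney.

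**Figure D1:**
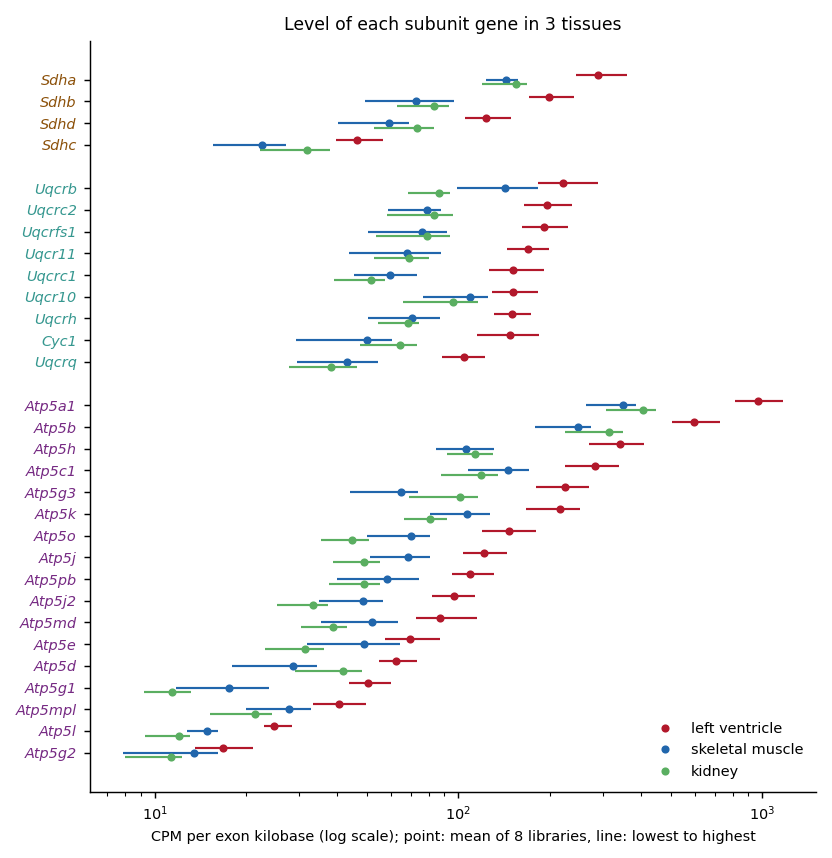
Level of each detected subunit gene in left ventricle, skeletal muscle and kidney, as CPM per exon kilobase on a log axis, with complex II at the top, complex III in the middle and ATP synthase at the bottom. Points are means of 8 libraries and lines run from the lowest to the highest library. For 27 of 30 genes every left ventricle library lay above every library of the other tissues. The share of all genes so ordered was not counted, so this count does not show a trait particular to these genes.

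Against kidney, all 30 members were higher in left ventricle by edgeR's quasi-likelihood test with Benjamini-Hochberg adjustment over all genes, with adjusted p between 4.58e-17 and 6.63e-05. Of all 46984 genes tested, 33.6% passed in either direction, 14.3% as higher and 19.3% as lower. The members' median log2 difference was 1.22, beside 0.095 for all genes. Against skeletal muscle, all 30 members were again higher in left ventricle, where 26.6% of genes passed, 15.4% as higher and 11.3% as lower. That median was 1.08, beside -0.12 for all genes. Both contrasts use the same left ventricle libraries, so their values are not independent of each other. With total counts in place of TMM, the median of all genes moved by -0.27 over kidney and by 0.32 over skeletal muscle, and all 30 members were still higher in both contrasts. Relative to the median of all genes, the members' median was 1.11 over kidney and 1.19 over skeletal muscle with total counts, against 1.12 and 1.196 with TMM.

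In complex II, Sdha, the flavoprotein subunit that oxidises succinate, had the highest level per exon kilobase in left ventricle. Its lowest, median and highest library were 1010, 1161 and 1479 CPM in left ventricle, 510, 583 and 650 CPM in skeletal muscle, and 493, 667 and 693 CPM in kidney. All left ventricle libraries lay above all others, and skeletal muscle and kidney overlapped. The log2 difference of left ventricle was 1.0 ± 0.092 (SE) over skeletal muscle and 0.90 ± 0.092 over kidney. Sdhb, the iron-sulfur subunit, had 381, 429 and 537 CPM in left ventricle, 111, 164 and 217 CPM in skeletal muscle, and 141, 194 and 209 CPM in kidney. It showed the largest difference of complex II in both contrasts, 1.48 ± 0.091 over skeletal muscle and 1.26 ± 0.090 over kidney.

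Sdhc and Sdhd anchor complex II in the inner membrane and contribute to the site where ubiquinone is reduced. Sdhc had 128, 148 and 183 CPM in left ventricle, 50.6, 77.6 and 88.0 CPM in skeletal muscle, and 72.5, 109 and 123 CPM in kidney. The kidney libraries came close to the left ventricle range without entering it, and the log2 difference of left ventricle over kidney, 0.55 ± 0.10 (adjusted p = 6.63e-05), was the smallest among the 30 members. Sdhd had 130, 143 and 184 CPM in left ventricle, 49.6, 76.1 and 84.6 CPM in skeletal muscle, and 64.8, 94.1 and 102 CPM in kidney, with a log2 difference of 0.76 ± 0.093 over kidney and 1.07 ± 0.094 over skeletal muscle.

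In complex III, the core protein gene Uqcrc1 had 524, 630.5 and 793 CPM in left ventricle, 188, 245 and 302 CPM in skeletal muscle, and 162, 220 and 237 CPM in kidney. It had the largest difference of the complex over kidney, at 1.56 ± 0.093 on the log2 scale. Cyc1, the cytochrome c1 subunit that hands electrons to cytochrome c, had 249, 311 and 399 CPM in left ventricle, 63.0, 110.5 and 130 CPM in skeletal muscle, and 102 (lowest), 141 and 157 CPM in kidney. It had the largest difference over skeletal muscle, 1.58 ± 0.11, with no overlap between the tissues. Uqcrfs1, the Rieske iron-sulfur protein, differed by 1.29 ± 0.10 over kidney and 1.35 ± 0.10 over skeletal muscle. The other core protein, Uqcrc2, differed by 1.24 ± 0.092 and 1.32 ± 0.092 in the same order.

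The small subunits of complex III, which carry no redox centre, were less alike. Uqcr10 had 75.3, 83.3 and 107 CPM in left ventricle, 44.6, 65.6 and 73.1 CPM in skeletal muscle, and 38.5, 56.9 and 67.6 CPM in kidney. Its log2 differences, 0.48 ± 0.094 over skeletal muscle and 0.66 ± 0.094 over kidney, were the smallest of complex III. Uqcrb, annotated as a ubiquinone-binding subunit, had 160, 186 and 252 CPM in left ventricle, 86.9, 122.5 and 160.5 CPM in skeletal muscle, and 59.9, 79.3 and 82.5 CPM in kidney. It was the only member whose skeletal muscle libraries all lay above its kidney libraries, and its highest skeletal muscle library reached the left ventricle range. Uqcrq, Uqcrh and Uqcr11 differed by 1.13 to 1.46 over kidney and by 1.09 to 1.34 over skeletal muscle.

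Among subunit genes, Uqcrb had the highest level per exon kilobase in complex III in left ventricle, with 183, 212 and 287.5 CPM per exon kilobase. Atp5a1, the alpha subunit of the catalytic head, was highest in ATP synthase with 813, 939 and 1176 CPM per exon kilobase. Division by the length of the principal transcript in place of all exons put Uqcrq and Atp5b first in these complexes. The order of genes within a complex therefore depended on which length was used.

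In ATP synthase, the head and central stalk are built from Atp5a1, Atp5b, Atp5c1, Atp5d and Atp5e. Atp5a1 had 2548, 2944 and 3686 CPM in left ventricle, 824, 1113 and 1210 CPM in skeletal muscle, and 962, 1312 and 1400 CPM in kidney. Left ventricle was higher by 1.26 ± 0.10 over kidney and 1.47 ± 0.10 over skeletal muscle on the log2 scale, with no overlap. Atp5d, the delta subunit of the central stalk, differed least from kidney among the 5 genes, by 0.59 ± 0.10, and Atp5e, the epsilon subunit, differed least from skeletal muscle, by 0.52 ± 0.10.

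The peripheral stalk (Atp5pb, Atp5h, Atp5j and Atp5o) holds the head still while the ring turns. These genes were higher in left ventricle by 1.17 to 1.72 over kidney and by 0.83 to 1.68 over skeletal muscle on the log2 scale. Atp5h, subunit d, had 395, 492 and 601 CPM in left ventricle, 124, 154 and 192 CPM in skeletal muscle, and 134, 167 and 190.3 CPM in kidney. The membrane subunits Atp5k, Atp5j2, Atp5l, Atp5md and Atp5mpl, some of which help pair the enzyme into dimers, differed by 0.93 to 1.53 over kidney and by 0.55 to 1.01 over skeletal muscle.

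**Figure D2:**
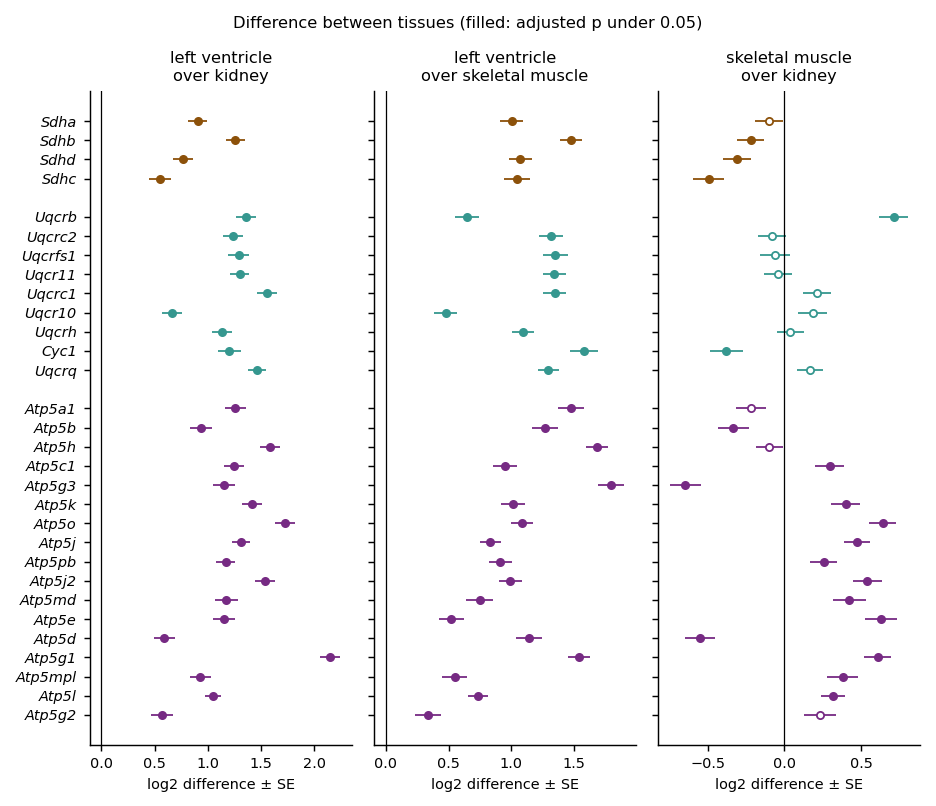
Log2 difference between tissues for each detected subunit gene, with its standard error, from the fit of all 24 libraries; filled points have an adjusted p under 0.05. All 30 points are filled and positive in the panels of left ventricle over kidney and over skeletal muscle, and 19 are filled in the panel of skeletal muscle over kidney, 12 of them positive and 7 negative, a split that turns to 1 and 25 when libraries are scaled by total counts.

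Skeletal muscle and kidney differed in both directions, depending on the subunit. By edgeR's quasi-likelihood test, 12 of 30 members were higher in skeletal muscle and 7 were lower, beside 43.5% of all genes passing, 21.4% as higher and 22.1% as lower. The members' split turned to 1 higher and 25 lower with total counts in place of TMM. The members' median log2 difference was 0.18, beside 0.23 for all genes. In complex II, Sdhb, Sdhc and Sdhd were lower in skeletal muscle, by -0.22 ± 0.089, -0.49 ± 0.10 and -0.31 ± 0.093 on the log2 scale, and Sdha had a difference of -0.10 ± 0.091 (adjusted p = 0.388). In complex III, Uqcrb was higher by 0.71 ± 0.095 and Cyc1 was lower by -0.38 ± 0.11, while the other 7 members did not pass.

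Within ATP synthase, 11 members were higher in skeletal muscle and 3 were lower with TMM. With total counts, 1 of all 30 members was called higher and 25 were called lower. All 5 membrane subunits Atp5k, Atp5j2, Atp5l, Atp5md and Atp5mpl were higher, by 0.31 to 0.54, as were Atp5pb, Atp5j and Atp5o of the peripheral stalk, by 0.26 to 0.64. In the head and central stalk, Atp5e and Atp5c1 were higher by 0.63 ± 0.10 and 0.30 ± 0.093, whereas Atp5b and Atp5d were lower, by -0.33 ± 0.10 and -0.55 ± 0.10. Atp5o, the subunit that joins the stalk to the head, had 98.7, 141 and 159 CPM in skeletal muscle, against 69.9, 88.4 and 99.98 CPM in kidney. Atp5e had 55.9, 87.7 and 113 CPM in skeletal muscle, against 40.6, 57.7 and 63.7 CPM in kidney. Both genes overlapped between the tissues through the lowest skeletal muscle library. With total counts in place of TMM neither passed, Atp5e at 0.037 (edgeR, adjusted p = 0.750) and Atp5o at 0.042 (adjusted p = 0.567).

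With total counts the median of all genes moved by -0.59 on the log2 scale in this contrast. Relative to the median of all genes, the members' median was -0.058 with TMM and -0.071 with total counts, but 0.27 with the filter of 1 CPM and 0.060 without male 17 at 86 weeks.

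The 3 genes for subunit c did not share a tissue pattern. Atp5g1 had 215, 244 and 296 CPM in left ventricle, 57.8, 87.5 and 117 CPM in skeletal muscle, and 45.4, 55.7 and 64.9 CPM in kidney. Its difference of left ventricle over kidney, 2.15 ± 0.091 on the log2 scale (edgeR, adjusted p = 4.58e-17), was the largest among the 30 members. Atp5g3 had 394, 470 and 588 CPM in left ventricle, 95.7, 146 and 160.3 CPM in skeletal muscle, and 150.2, 230 and 253 CPM in kidney. Its difference over skeletal muscle, 1.79 ± 0.10, was the largest of that contrast, and it was lower in skeletal muscle than in kidney, by -0.65 ± 0.10. Atp5g2 had 22.7, 27.4 and 35.3 CPM in left ventricle, 13.1, 24.7 and 27.2 CPM in skeletal muscle, and 13.4, 19.5 and 20.6 CPM in kidney.

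For Atp5g2 the left ventricle and skeletal muscle libraries overlapped. Its difference over skeletal muscle was 0.34 ± 0.10 (edgeR, adjusted p = 0.0144) and did not pass without the mouse numbered 14 at 86 weeks (adjusted p = 0.0896), number 14 at 16.5 weeks (0.107) or number 15 at 16.5 weeks (0.0569).

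As a share of the summed CPM per exon kilobase of the 3 genes, Atp5g3 made up 76.9% in left ventricle, with 67.8% in skeletal muscle and 81.6% in kidney. Atp5g1 made up 17.4, 18.3 and 9.28% in the same tissues, and Atp5g2 5.73, 13.9 and 9.14%. The share of Atp5g1 in kidney ranged from 7.73 to 10.7%, below every library of left ventricle, which ranged from 16.5 to 18.4%. The gene with the largest share was Atp5g3 in every tissue under each of 3 length treatments, but the size of the shares moved with the length used.

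**Figure D3:**
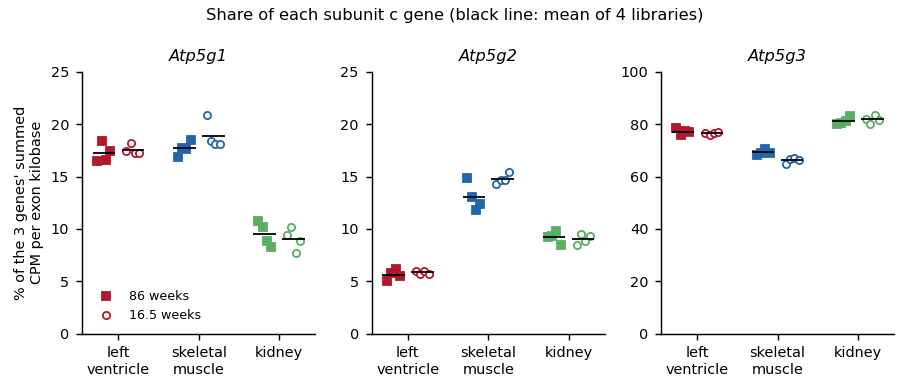
Share of each subunit c gene in the summed CPM per exon kilobase of the 3 genes, by tissue and age, with filled squares for 86 weeks, open circles for 16.5 weeks and a line at the mean of 4 libraries. Atp5g1 lies near 17.4% in left ventricle and 9.28% in kidney, and the Atp5g3 share in skeletal muscle at 86 weeks (68.2 to 70.5%) lies above that at 16.5 weeks (64.8 to 67.2%).

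The subunits encoded in mitochondrial DNA were higher in left ventricle too. The cytochrome b gene of complex III, mt-Cytb, had log2 differences of 1.40 ± 0.11 over skeletal muscle and 1.23 ± 0.11 over kidney. The ATP synthase genes mt-Atp6 and mt-Atp8 differed by 1.11 ± 0.11 and 1.13 ± 0.12 over skeletal muscle and by 1.24 ± 0.11 and 1.26 ± 0.12 over kidney. Between skeletal muscle and kidney, edgeR called none of the 3, at an unadjusted p under 0.05 it called 0, and the log2 differences were -0.17, 0.14 and 0.14 for mt-Cytb, mt-Atp6 and mt-Atp8. Mitochondrially encoded transcripts as a whole took 25.8 to 29.4% of counts in left ventricle, 13.995 to 17.4% in skeletal muscle and 21.9 to 25.1% in kidney.

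Other respiratory chain genes gave similar counts. Of 40 complex I subunits, 39 were higher in left ventricle than in kidney and 36 were higher than in skeletal muscle, with median log2 differences of 1.2 and 0.84. Of 15 complex IV subunits, 12 were higher and 3 lower than in kidney, and all 15 were higher than in skeletal muscle. Cycs, the somatic cytochrome c that complex III reduces, was higher in left ventricle by 1.37 ± 0.09 over kidney and 0.81 ± 0.09 over skeletal muscle.

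Genes that build or restrain these complexes were more varied. Atpif1, the inhibitor that stops ATP synthase from running backwards, was highest in kidney. It had 34.7 to 54.0 CPM in left ventricle, 8.73 to 10.5 CPM in skeletal muscle and 93.6 to 132 CPM in kidney, with no overlap among the tissues. Its log2 difference was -1.26 ± 0.09 for left ventricle over kidney, 2.2 ± 0.09 for left ventricle over skeletal muscle and -3.46 ± 0.10 for skeletal muscle over kidney. Atpaf1, an assembly factor for the head, was higher in left ventricle by 1.11 ± 0.08 over kidney and 0.43 ± 0.08 over skeletal muscle.

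Of 6 assembly factors of complex III, 5 were higher in left ventricle than in kidney, and against skeletal muscle 3 were higher and 3 lower. Lyrm7, which helps insert the Rieske protein, was higher by 1.58 ± 0.09 over kidney and 0.96 ± 0.09 over skeletal muscle, whereas Uqcc2 was higher by 1.26 ± 0.10 over kidney and lower by -0.86 ± 0.10 than in skeletal muscle. Of 4 assembly factors of complex II, 2 were higher and 1 lower in left ventricle than in kidney, with Sdhaf4 at 0.76 ± 0.11 and Sdhaf1 at -0.29 ± 0.09.

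The carriers that exchange ADP for ATP divided by isoform. Slc25a4 was higher in left ventricle than in kidney by 4.27 ± 0.11, and Slc25a5 was lower by -1.73 ± 0.10. In skeletal muscle over kidney the same 2 genes differed by 3.78 ± 0.11 and -4.63 ± 0.12. Slc25a3, the phosphate carrier, was higher in left ventricle by 0.85 ± 0.10 over kidney and 1.46 ± 0.10 over skeletal muscle.

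Of 14 transcriptional regulators of respiratory genes, 8 were higher and 2 lower in left ventricle than in skeletal muscle, and 2 were higher and 6 lower than in kidney. Ppargc1a, a coactivator of mitochondrial biogenesis, had log2 differences of 1.54 ± 0.08 over skeletal muscle and 0.15 ± 0.08 over kidney (edgeR, adjusted p = 0.135). Esrra, an oestrogen-related receptor, had 0.94 ± 0.10 and 0.19 ± 0.10 (adjusted p = 0.155) in the same order, and Esrrg had 3.15 ± 0.13 and -0.73 ± 0.12. Nrf1 had 0.15 ± 0.08 (adjusted p = 0.207) and -0.42 ± 0.08. Gabpa had 0.64 ± 0.09 and 0.26 ± 0.09, and the call of its difference over kidney was lost under DESeq2 (adjusted p = 0.0695) and on leaving out any of 6 mice, and its sign turned with total counts (-0.027).

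With age, none of the 30 members passed in any tissue. By edgeR's quasi-likelihood test 0 members were called in left ventricle, where 0.0741% of all genes passed, 0 in skeletal muscle, where 0.0183% passed, and 0 in kidney, where 0.112% passed. DESeq2 and limma-voom also called 0 in each tissue. At an unadjusted p under 0.05 edgeR gave 0 members in left ventricle, with 9 in skeletal muscle and 8 in kidney, DESeq2 gave 0, 7 and 8, and limma-voom gave 1, 13 and 13. Of all genes, 3.37, 5.51 and 7.96% had an unadjusted p under 0.05 by edgeR in the same tissues. Over the 17 alternatives of each tissue the members' count at that level ran from 0 to 8 in left ventricle, with 4 to 16 in skeletal muscle and 2 to 19 in kidney. The highest counts came without male 14 at 86 weeks in left ventricle, where total counts also gave 8, with the filter of 1 CPM in skeletal muscle, and without female 12 at 86 weeks in kidney.

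The fitted age differences had nearly all the same sign. They were negative, that is lower at 86 weeks, for 29 of 30 members in left ventricle, with 30 in skeletal muscle and 30 in kidney, and the exception was Atp5e in left ventricle at 0.053. With total counts in place of TMM, 27, 26 and 28 of 30 were negative in the same tissues. With TMM the median log2 difference was -0.16 in left ventricle, with -0.20 in skeletal muscle and -0.17 in kidney, beside 0.0074, 0.017 and 0.023 for all genes. With total counts it was -0.12, -0.086 and -0.078 in the same tissues, beside 0.056, 0.13 and 0.12 for all genes. The members of a tissue were not independent of each other, since they shared libraries and moved together from library to library.

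**Figure D4:**
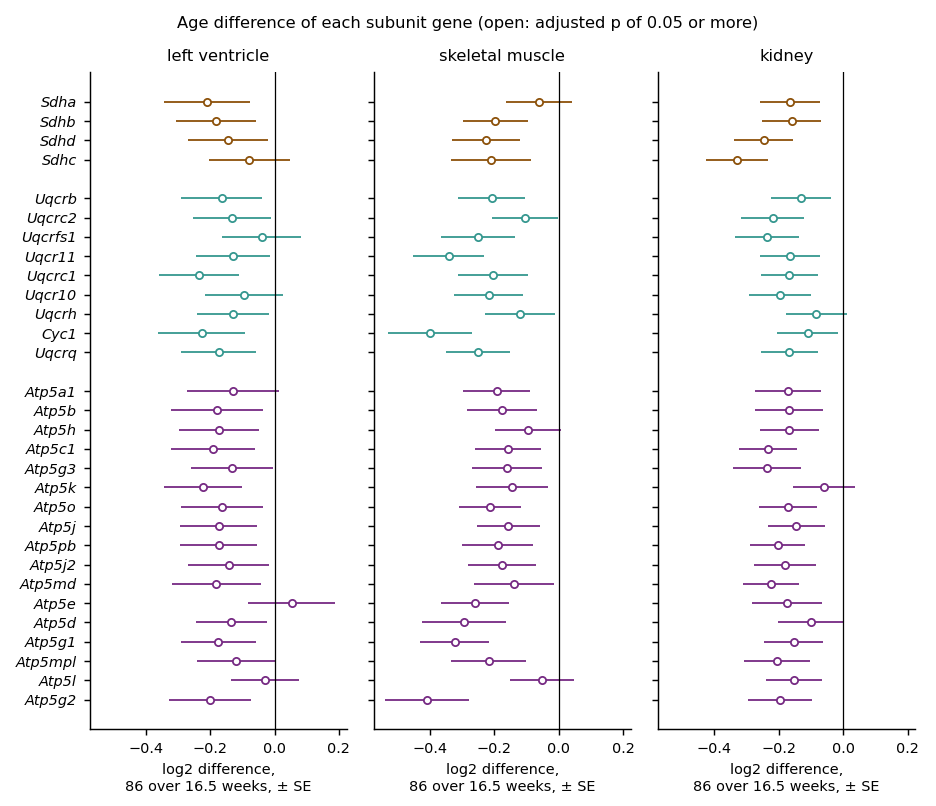
Log2 difference of 86 weeks over 16.5 weeks for each detected subunit gene in each tissue, with its standard error; open points have an adjusted p of 0.05 or more. Every point is open, and all but Atp5e in left ventricle (0.053) lie below 0.

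The summed level of the 30 genes was 5300 ± 787 CPM per exon kilobase at 86 weeks and 5890 ± 646 at 16.5 weeks in left ventricle, 2288 ± 366 and 2641 ± 164 in skeletal muscle, and 2280 ± 329 and 2629 ± 58 in kidney (SD, n = 4 each). Every 86 week library lay below every 16.5 week library for 0 members in left ventricle, 5 in skeletal muscle (Atp5a1, Atp5g1, Cyc1, Uqcr11 and Uqcrc1) and 11 in kidney. The same held for 1.1% of genes with a mean of 1 CPM or more in left ventricle, with 1.91% in skeletal muscle and 2.41% in kidney. The opposite order held for 0 members in each tissue, beside 1.53, 1.42 and 2.36% of genes.

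In left ventricle, the member with the smallest p in each complex was Sdha, Uqcrc1 and Atp5k. Sdha had 1054 and 1042 CPM, here scaled within the tissue, in 86 week females and 1351 and 1015 in 86 week males, against 1326 and 1165 in 16.5 week females and 1207 and 1454 in 16.5 week males. Uqcrc1 had 557, 539, 702 and 526 CPM at 86 weeks, against 667, 629, 659 and 779 CPM at 16.5 weeks. For both genes 3 of the 4 libraries at 86 weeks lay below all libraries at 16.5 weeks, and male number 14 lay among them. The log2 differences were -0.21 ± 0.13 for Sdha and -0.23 ± 0.12 for Uqcrc1, each with adjusted p = 0.9997 (edgeR). Atp5k, subunit e of the membrane part, had 105, 124, 151 and 115 CPM at 86 weeks, against 152, 137, 133 and 153 CPM at 16.5 weeks, a difference of -0.22 ± 0.12.

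In skeletal muscle, Atp5g2 had the smallest p of all members. It had 20.3, 16.96, 14.1 and 11.6 CPM at 86 weeks, against 21.4, 20.3, 19.7 and 20.8 CPM at 16.5 weeks, in the order of females then males. Only the highest library at 86 weeks reached the range at 16.5 weeks, and the difference was -0.41 ± 0.13 (edgeR, adjusted p = 0.726). Cyc1 had 84.8, 86.9, 73.7 and 55.6 CPM at 86 weeks, against 97.999, 91.7, 104 and 99.6 CPM at 16.5 weeks. Its groups did not overlap, and the difference was -0.40 ± 0.13 (edgeR, adjusted p = 0.740). Sdhd had 63.0, 60.0, 50.8 and 43.8 CPM at 86 weeks, against 66.7, 63.5, 58.2 and 64.1 CPM at 16.5 weeks, and its groups overlapped. Its difference was -0.23 ± 0.11 (edgeR, adjusted p = 0.910).

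In kidney, Sdhc had the smallest p. It had 94.3, 112, 113 and 129.9 CPM at 86 weeks, against 145, 131, 150.4 and 137 CPM at 16.5 weeks. The groups did not overlap, and the difference was -0.33 ± 0.096 (edgeR, adjusted p = 0.330). Atp5md had 109, 129, 116 and 128 CPM at 86 weeks, against 138, 144, 139.7 and 141 CPM at 16.5 weeks, also without overlap, and differed by -0.22 ± 0.087 (edgeR, adjusted p = 0.529). Uqcrfs1 had 95.3, 119, 129 and 141 CPM at 86 weeks, against 138, 136, 157 and 137 CPM at 16.5 weeks, a difference of -0.24 ± 0.10 (edgeR, adjusted p = 0.578) with overlap at the highest library.

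The 30 members were high or low together in several libraries. In left ventricle, 30 of 30 members lay above their mean over the 8 libraries in male 14 at 86 weeks and in male 20 at 16.5 weeks, and 0 of 30 did in female 12 and male 17 at 86 weeks. In skeletal muscle 0 of 30 lay above in male 17 at 86 weeks and 30 of 30 in female 14 at 16.5 weeks. In kidney 0 of 30 lay above in female 11 at 86 weeks and 30 of 30 in female 14 at 16.5 weeks. Mice that carry the same number at the 2 ages are different animals.

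**Figure D5:**
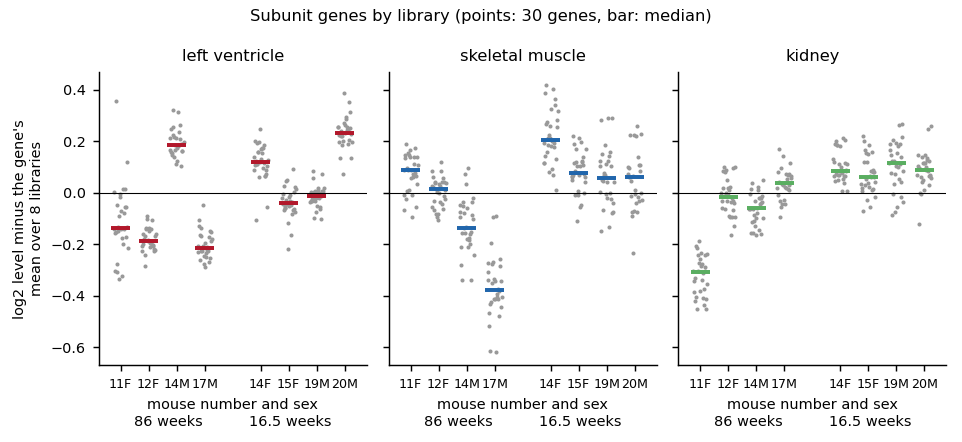
Position of each of the 30 subunit genes in each library, as its log2 level minus that gene's mean over the 8 libraries of the tissue; bars are medians, and mice are given by number and sex. The medians are lowest at -0.38 in skeletal muscle of male 17 and at -0.31 in kidney of female 11, both at 86 weeks, and highest at 0.23 in left ventricle of male 20 at 16.5 weeks.

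Of the libraries that stood apart, 3 with low members' medians had the highest TMM factor of their tissue. The TMM factor of male 17 in skeletal muscle at 86 weeks was 1.18, against 0.910 to 1.005 in the other 7 libraries, and 53252 genes had at least 1 count there, against 51590 to 52432. In kidney of female 11 at 86 weeks the factor was 1.16, against 0.928 to 1.04, and in left ventricle of male 17 it was 1.13, against 0.886 to 1.10, at the lowest total count of the series. Without the library of highest factor in each tissue, the members' median age difference was -0.14 in skeletal muscle, -0.11 in kidney and -0.091 in left ventricle. Then 30, 30 and 27 members were negative and 0 were called. In left ventricle the median was -0.10 without female 14 at 16.5 weeks, -0.097 without male 20 at 16.5 weeks and -0.25 without male 14 at 86 weeks. With total counts in place of TMM, the medians of all genes moved by 0.12 in skeletal muscle, 0.098 in kidney and 0.048 in left ventricle. Relative to all genes, the members' medians were then -0.22, -0.20 and -0.17, against -0.22, -0.19 and -0.17 with TMM. Over the 8 libraries of a tissue, the members' median position and the TMM factor had a Pearson r of -0.84 in left ventricle, with -0.82 in skeletal muscle and -0.92 in kidney, and levels are by construction divided by that factor. In skeletal muscle the r with the number of genes with counts was -0.97 (n = 8), and it was -0.25 in left ventricle and -0.061 in kidney. With the total count of the library the r was 0.71 in left ventricle, with 0.59 in skeletal muscle and 0.46 in kidney (n = 8 each). The part of depth and scaling in the age differences was not tested beyond these values.

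Markers of the main cell types had lower sums at 86 weeks as well. The 5 cardiomyocyte markers summed to 42692 to 59449 CPM in left ventricle at 86 weeks and 50458 to 61244 CPM at 16.5 weeks, and 4 of 5 had negative differences. The 7 fibre markers summed to 118050 to 163640 CPM in skeletal muscle at 86 weeks and 156860 to 182720 CPM at 16.5 weeks, with 5 of 7 negative. The 6 proximal tubule markers summed to 8696 to 12013 CPM in kidney at 86 weeks and 11337 to 12984 CPM at 16.5 weeks, with 5 of 6 negative. In skeletal muscle other lists moved as well. All 5 adipocyte markers were positive, with a median of 1.43 and sums of 49.6 to 310 CPM at 86 weeks and 47.7 to 183 CPM at 16.5 weeks. All 4 slow fibre markers were positive, with a median of 0.90 and sums of 9.07 to 40.6 CPM at 86 weeks and 9.63 to 11.6 CPM at 16.5 weeks. Of 5 fibroblast markers 4 were negative, with a median of -0.97 and sums of 287 to 562 CPM at 86 weeks and 349 to 1120 CPM at 16.5 weeks. All 6 macrophage markers had positive differences in each tissue, and none of these lists had a marker at 0 counts over a group. None of the markers in these lists passed the adjusted threshold with age in the tissue given, and their part in the subunits' differences was not tested. In kidney, adipocyte markers summed to 27.0 to 56.1 CPM at 86 weeks and 19.4 to 154 CPM at 16.5 weeks. Brown adipocyte markers there summed to 0.770 to 3.69 CPM at 86 weeks and 0.759 to 51.4 CPM at 16.5 weeks, highest in a female. The part of these fat markers was not tested either.

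Other genes of the respiratory chain were also mostly negative with age. Of 40 complex I subunits, 40 were negative in left ventricle, with 38 in skeletal muscle and 38 in kidney, and 0 passed by edgeR, with 0, 10 and 7 at an unadjusted p under 0.05. Of the mitochondrially encoded partners 1, 2 and 3 of 3 were negative in the same tissues, with median differences of 0.024, -0.037 and -0.19. Among the regulators 0 of 14 passed, with 0, 2 and 4 at an unadjusted p under 0.05, and Ppargc1a in kidney had a difference of -0.27 ± 0.08 (edgeR, adjusted p = 0.330) and Esrra in skeletal muscle -0.30 ± 0.13 (adjusted p = 0.888).

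The age difference itself was compared between tissues and between sexes. By an edgeR test of equal age terms in the 3 tissues, 0 members passed, 0 had an unadjusted p under 0.05, and 0.0319% of all genes passed. By the age-by-sex test, 0 members passed in left ventricle, skeletal muscle or kidney, where 0.0157, 0 and 0.0247% of all genes passed, and 0, 4 and 0 members had an unadjusted p under 0.05, beside 2.38, 6.61 and 4.11% of all genes. Over the 12 alternatives that count ran from 0 to 1, 0 to 9 and 0 to 11, the last without female 12 at 86 weeks. DESeq2 called 0 members in each of these 4 tests. The fitted age change in males minus that in females was positive for 24 of 30 members in left ventricle (median 0.11) and 30 in kidney (median 0.14). In skeletal muscle it was negative for 27 (median -0.12). Leaving out 1 mouse at 86 weeks gave 4 positive in left ventricle (male 14), 18 negative in skeletal muscle (male 17) and 18 negative in kidney (female 11). Between age groups within a sex there were 2 mice on each side, and on simulated counts the age-by-sex test found 6 to 22% of genes changed 2-fold, so a difference of that size could be missed.

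Between the sexes, 0 members passed by edgeR in left ventricle, skeletal muscle or kidney, where 0.871, 1.36 and 7.58% of all genes passed. At an unadjusted p under 0.05 there were 0, 11 and 2 members, beside 5.10, 9.62 and 17.1% of all genes. Over the 17 alternatives this count ran from 0 to 5 in left ventricle, highest without male 17 at 86 weeks, from 3 to 16 in skeletal muscle, lowest without female 11 at 86 weeks and highest with total counts, and from 0 to 10 in kidney, highest with the filter of 1 CPM. DESeq2 called 0, 1 and 0, and limma-voom called 0 in each. Fitted differences of males over females were positive for 29 of 30 members in left ventricle, with a median of 0.11, negative for 27 of 30 in skeletal muscle, with a median of -0.20, and positive for 23 of 30 in kidney, with a median of 0.10. With total counts in place of TMM, 27 were positive in left ventricle, 27 negative in skeletal muscle and 16 positive in kidney, with medians of 0.052, -0.18 and 0.022. The median in left ventricle was 0.031 without male 14 at 86 weeks, 0.18 without male 17 at 86 weeks or female 14 at 16.5 weeks and 0.19 without male 19 at 16.5 weeks. In kidney it was 0.027 without female 11 at 86 weeks, with 18 members positive.

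In skeletal muscle, Sdhb had the smallest p for sex. Males had 114 and 97.7 CPM at 86 weeks and 118 and 123 CPM at 16.5 weeks, and females had 136 and 140.2 CPM at 86 weeks and 171 and 148 CPM at 16.5 weeks. All males lay below all females, and the difference was -0.40 ± 0.10 (edgeR, adjusted p = 0.0913), with adjusted p at 0.0447 by DESeq2, 0.0148 with total counts and 0.0324 with the filter of 1 CPM. In kidney, Uqcrq had 87.4 and 88.5 CPM in males at 86 weeks and 89.6 and 101 CPM at 16.5 weeks, against 66.1 and 79.2 CPM in females at 86 weeks and 85.1 and 83.7 CPM at 16.5 weeks. All males lay above all females there, and the difference was 0.23 (edgeR, adjusted p = 0.175), and it passed with the filter of 1 CPM (adjusted p = 0.0189). In a test of equal sex terms across tissues, added after these values had been seen, 0 members passed by edgeR beside 1.88% of all genes, 6 had an unadjusted p under 0.05, and DESeq2 and limma-voom called 0. Skeletal muscle fibre markers were negative for males over females in 7 of 7 genes, with 0 called, and their sum was 118050 to 182720 CPM in males and 159220 to 169040 CPM in females, so the groups overlapped. In kidney, 3 of 6 proximal tubule markers were called higher in males and 1 lower, and their sum was 10339 to 12373 CPM in males and 8696 to 12984 CPM in females. All 6 markers of the loop, distal tubule and collecting duct were negative, 3 of them called, with sums of 3145 to 3977 CPM in males and 4118 to 5200 CPM in females, which did not overlap. All 3 podocyte markers were called lower in males, with sums of 129 to 188 CPM in males and 159 to 252 CPM in females. Of the fibroblast and macrophage markers, 5 of 5 and 6 of 6 were negative, with 1 and 0 called. Fibroblast markers summed to 145 to 238 CPM in males and 201 to 365 CPM in females, and macrophage markers to 62.9 to 70.6 CPM in males and 72.2 to 129.98 CPM in females. Adipocyte markers summed to 21.1 to 31.6 CPM in males and 19.4 to 154 CPM in females. Brown adipocyte markers summed to 0.770 to 0.900 CPM in males and 0.759 to 51.4 CPM in females. The part of these markers in the subunits' differences was not tested.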

How the data were processed

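Per the labels, total RNA was depleted of ribosomal RNA and made into libraries with a Zymo-seq kit, and per the submitters' processing notes STAR 2.7.6a, StringTie 2.1.1 and the build GRCm38.p6 were used. The deposited table gives whole-number read counts per gene for 55401 genes and 24 libraries. The annotation release, the strand setting and how the authors derived counts from StringTie are not given in the sources used here. Of the gene identifiers, 54349 matched GENCODE M21, which gave exon lengths and chromosomes.

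Groups came from the labels. Counts as deposited were tested with edgeR 4.0.16 (R 4.3.3), using TMM scaling, filterByExpr on tissue, age and sex, the quasi-likelihood F-test and Benjamini-Hochberg adjustment over all genes tested at 0.05. Age and sex were fitted within each tissue, with their interaction tested apart. Tissues, age by tissue and sex by tissue were fitted over all 24 libraries, with age and sex terms within each tissue and no term for mouse. Standard errors are the size of the log2 difference divided by the square root of F. DESeq2 1.42.0 and limma-voom (limma 3.58.1) were alternatives, with other scalings, a filter of 1 CPM in 4 libraries, and each mouse left out. Levels between genes are CPM per kilobase of merged exons. The fits were tested on simulated counts, where the age tests within tissues found 72 to 77% of genes changed 2-fold and 99 to 100% of those changed 4-fold.

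The same mouse gave all 3 tissues, so mouse is a true block between tissues. The main fits over 24 libraries left this block out, so their standard errors and p treat libraries of the same mouse as independent. Mouse as a block was an alternative. The same-mouse correlations of deviations between tissues were 0.036 to 0.30, with 19 of 24 over 0.1. Deviations were taken from the mean of each tissue and age, so these correlations mix mouse with sex. Replicates are separate mice. Members and gene lists were chosen with earlier results of these data known.

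Values in each library are given for the member of each complex with the smallest age p in a tissue. For sex they are given for Sdhb in skeletal muscle and Uqcrq in kidney. The lowest, median and highest library are given for the subunit c genes and the highest member per kilobase. They are also given for members with the largest or smallest differences of left ventricle over kidney and over skeletal muscle. From other lists up to 4 genes that passed, by smallest p, and a fixed set of regulators and partners are named. Atp5e, Atp5o, Atp5d, Atp5h, Uqcrb, Sdhb and Uqcrq were further singled out after their values were seen. Promoters and their motif matches use the RefSeq table for GRCm38.p6. Counting intervals are not given, since every value comes from replicated libraries of at least 52602585 counts.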

Additional observations from a re-analysis of the deposited data

Results flagged for a closer look

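In groups of 4 libraries, 26 values (the 20 members named in full, the summed level of each complex and the share of each subunit c gene) were checked in each of 6 groups of tissue and age for a library far from the other 3. Of these 156 checks, 17 had a gap above Dixon's 95% critical value for the gap as a share of the range. Chance flags about 1 in 20 groups, and the members move together, so the checks are not independent.

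Most flags fell on 2 libraries. In left ventricle at 86 weeks, male 14 stood above the other 3 mice for Sdha (1351 CPM), Sdhb (507 CPM), Cyc1 (395 CPM), Uqcrq (220.0 CPM), Atp5d (135 CPM), Atp5g1 (276 CPM) and Atp5g2 (35.0 CPM). The same library was high for the summed complex II (759 CPM per exon kilobase) and ATP synthase (3989 CPM per exon kilobase). In skeletal muscle at 16.5 weeks, female 14 stood above the other 3 for Atp5g1 (91.8 CPM) and Atp5h (151 CPM). It was also high for the summed complex II (347 CPM per exon kilobase), complex III (837) and ATP synthase (1703), and for the share of Atp5g1 in subunit c (20.9%). In kidney, Cyc1 was low in female 11 at 86 weeks (133 CPM, against 170.3 to 178 CPM in the other 3), and Uqcrfs1 was high in male 19 at 16.5 weeks (157 CPM, against 136 to 138 CPM).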

How the results depend on the processing

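The 0 calls for age held under 51 of 51 alternatives, as did those for age by sex (36 of 36) and age by tissue (17 of 17), and the median age difference kept its sign under all 51. Leaving out each mouse gave median age differences of -0.25 to -0.091 in left ventricle, -0.24 to -0.14 in skeletal muscle and -0.22 to -0.11 in kidney. Total counts gave -0.12, -0.086 and -0.078 in the same tissues, outside these ranges in skeletal muscle and kidney. With mouse as a replicate block, 30 members were called for left ventricle over skeletal muscle, 30 over kidney and 18 for skeletal muscle over kidney, and the block changed no other count by more than 1.5 times. No paired analysis was possible for age because the 2 ages come from different mice. All 30 calls of left ventricle over kidney held under every alternative tried, and 29 to 30 members were called over skeletal muscle. Skeletal muscle over kidney had 16 to 22 calls on leaving out a mouse, 1 higher and 25 lower with total counts, and 3 lower with a filter of 1 CPM. Total counts also gave summed ratios of 2.75, 1.58 and 0.575 for complex II, 2.66, 1.92 and 0.724 for complex III, 2.93, 1.93 and 0.658 for ATP synthase and 2.83, 1.88 and 0.663 for all members (left ventricle over skeletal muscle, left ventricle over kidney, skeletal muscle over kidney). For sex, skeletal muscle had 1 call under DESeq2, 3 with total counts and 2 with the 1 CPM filter, kidney had 2 with total counts and 1 with the 1 CPM filter, and sex by tissue had 2 under each of these settings. By principal transcript length, a choice made after seeing the data, the shares of Atp5g1 were 35.8, 36.7 and 21.2% in left ventricle, skeletal muscle and kidney, of Atp5g2 5.45, 12.9 and 9.63%, and of Atp5g3 58.7, 50.5 and 69.2%. With no division by length they were 32.5, 34.4 and 19.1%, then 3.66, 8.93 and 6.41%, then 63.8, 56.7 and 74.5%. In the 150 bases before the start, without the 50 bases after it, 6 of the 23 member genes held the NRF1 motif, against 4.90% of all genes. The ETS motif was held by 6 (6.33% of all genes), YY1 by 1 (2.58%), ERR by 1 (0.666%) and any of them by 11 (13.4%). Gabpa in left ventricle over kidney turned to -0.027 with total counts. For the named genes, 843 of 861 alternatives kept the call and direction. Apart from the shorter window and the scaling itself, the cause of these changes was not tested. With 4 mice per age, and age tests on simulated counts finding 72 to 77% of 2-fold changes, smaller differences than that could be missed.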
